A study of Mus musculus with 5 samples.

Results

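miR-501-3p and miR-188-5p are mature microRNAs (miRNAs) cut from hairpins that lie inside the mouse gene Clcn5. They were chosen by assay name and because earlier results of the same data showed miR-501-3p high after injury and out of step with miR-188-5p. They are 2 of the 217 miRNA assays of the series, and 4 further assays measure miRNAs of the same gene. The series followed mouse tibialis anterior, a muscle of the lower leg, through injury and repair. The groups were uninjected baseline muscle and muscle taken 1, 3, 4, 7 and 21 days after cardiotoxin, all from C57BL/6J males aged 4 to 6 months. Cardiotoxin, a snake venom peptide that lyses muscle fibres, was injected at 2.5 µM in 100 µl into both lower legs, and the labels give 4 mice per time point. Baseline muscle received no injection at all, so the needle and the saline differ between the groups together with the toxin. Days 2 and 5 are not analysed here.

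A miRNA silences messenger RNAs that pair with it, mainly through bases 2 to 8 of its 5′ end, the seed. Clcn5 encodes ClC-5, a chloride and proton exchanger of endosomes, and its transcript carries several miRNA hairpins in introns. Satellite cells, the stem cells of muscle, leave quiescence after injury, divide, and fuse into new fibres. In mouse, miR-501 has been described in activated satellite cells, where it acts on the messenger RNA of gigaxonin, and miR-188 has been described in bone marrow stromal cells, where it shifts differentiation towards fat cells.

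The 2 mature sequences have different seeds, so the miRNAs are not members of one seed family although they share a host gene. They are shown with the other assayed miRNAs of Clcn5 found in the RefSeq table (build GRCm38.p6, all on the minus strand of the X chromosome). The seed is in capitals. For the assay named miR-500, only the 3p arm is shown, and whether the assay reads that arm is not known.
miR-501-3p (chrX:7241270-7241291): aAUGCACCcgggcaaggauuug
miR-188-5p (chrX:7248031-7248051): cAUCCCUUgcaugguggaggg
miR-500-3p (chrX:7237695-7237716): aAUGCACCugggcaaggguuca
miR-362-3p (chrX:7241984-7242005): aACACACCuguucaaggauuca
miR-532-3p (chrX:7248419-7248440): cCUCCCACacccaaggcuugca

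miR-501-3p and miR-500-3p had the same seed, AUGCACC, and were identical at 18 of 22 positions. Counted from 1 at the 5′ end of miR-501-3p, the differences were C9U, A18G, U21C and G22A. The assay named miR-500 does not say which arm of its hairpin it reads, and the 5p arm has another seed, AUCCUUG. If it reads the 3p arm, these 2 assays have closely similar targets, and cross-detection between them was not tested. miR-362-3p matched miR-501-3p at 15 of 22 positions with a different seed, and miR-188-5p matched it at 6 of 21. miR-532-5p is the other assayed arm of its hairpin. Of the 217 assay names, 77 matched a single RefSeq mature sequence, miR-501-3p and miR-188-5p included. None of the others among the 77 had the seed of either miRNA. The miR-500 assay was not among the 77, since RefSeq holds both of its arms. Seeds of the unmatched assays were not compared.

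Clcn5 spans chrX:7153810-7319358 on the minus strand, and RefSeq gives it a far start at 7319358 and a near start 130.6 kb further along. All 5 hairpins lie between these starts, within 10.8 kb, so a transcript that begins at the near start does not contain them. In the direction of transcription the order is Mir532, Mir188, Mir362, Mir501 and Mir500, at 70.9, 71.3, 77.3, 78.0 and 81.6 kb from the far start. Mir188 is thus flanked by Mir532, 345 bases away, and by Mir362, 5942 bases away, and Mir501 follows Mir362 after 630 bases. The map of the gene shows this arrangement.

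**Figure D1:**
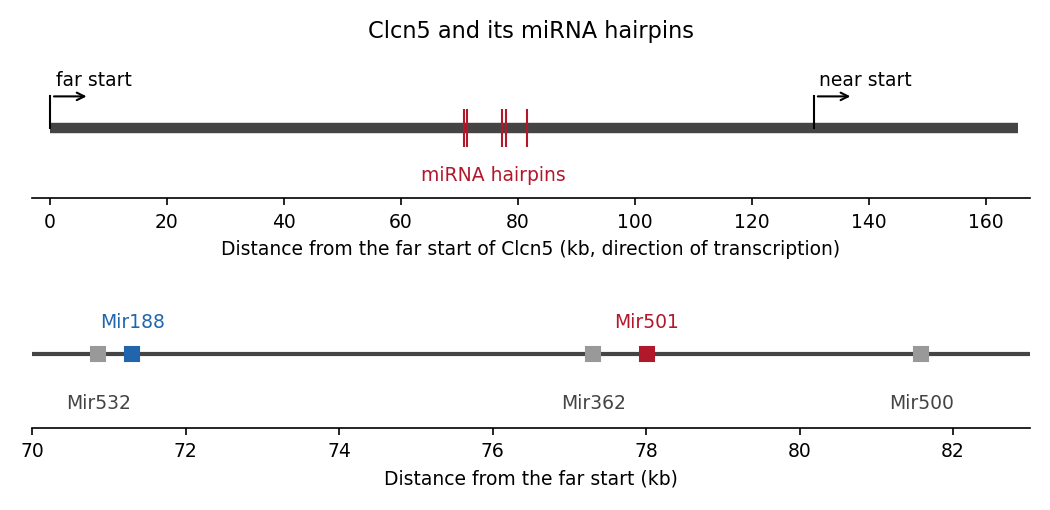
Upper line: Clcn5 with its far and near transcription start and its miRNA hairpins, by distance from the far start in kb. Lower line: the hairpins enlarged, with Mir188 in blue at 71.3 kb and Mir501 in red at 78.0 kb, and the other hairpins in grey.

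The readout was the threshold cycle (Ct) of a TaqMan PCR after reverse transcription. It is the cycle at which product becomes visible, and a low Ct stands for much RNA. Each assay had 4 Ct values per group, and the same 4 baseline values served every day. The values were taken as the 4 mice. The files do not say so, and if they are repeats of fewer animals the errors are technical. Changes are differences in minus Ct on the log2 scale, and folds assume that product doubles in each cycle. Levels are not compared between assays, since each assay has its own efficiency.

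The control RNAs moved with injury to different extents, which bears on how far a change can be read. U6, the endogenous control named in the files, had a mean Ct of 14.8 at baseline, then 12.5, 13.0, 13.2, 13.6 and 14.6 on days 1, 3, 4, 7 and 21, while Y1 had 20.3, then 22.7, 20.9, 19.7, 20.2 and 21.2. Changes are therefore given relative to the median miRNA: each value was shifted by the median change of 205 miRNAs that had a Ct under 35 in every well. Relative to U6, each change was lower by 1.91 on day 1, 1.12 on day 3, 0.67 on day 4, 0.09 on day 7 and 0.12 on day 21.

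miR-501-3p stood higher than baseline on every day measured. Relative to the median miRNA it was still close to its highest level at day 21. At baseline its Ct values were 28.61, 28.61, 28.59 and 27.12. On day 1 they were 25.13, 24.57, 25.37 and 25.80, and on day 3 they were 22.64, 23.03, 22.81 and 23.38. All 4 values of each day lay below all 4 baseline values, and those of day 3 lay below those of day 1.

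The highest levels of miR-501-3p came next. On day 4 its Ct values were 21.34, 21.76, 21.56 and 21.60, and on day 7 they were 21.17, 21.18, 21.23 and 22.01. At day 21, when the new fibres of this injury model are largely formed, they were 22.50, 22.46, 23.17 and 22.93. Days 4 and 7 overlapped, and every value of day 21 lay below the lowest baseline value.

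Relative to the median miRNA the change of miR-501-3p was 2.63 ± 0.29 on day 1 (SE of the fit, 4 values per group), a 6.19-fold higher level than at baseline. It was 4.56 on day 3 (23.6-fold), 5.72 on day 4 (52.8-fold), 5.64 on day 7 (50.0-fold) and 5.32 on day 21 (39.9-fold), with the same standard error. From day 4 to day 21 the change was thus smaller by 0.41 on the log2 scale. Because these values chose the miRNA, no test is attached to them. In muscle samples of mixed cells, a change in the number of cells that make a miRNA and a change in the RNA per cell cannot be told apart.

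Ordered by level relative to the median miRNA, miR-501-3p was highest on day 4, followed by days 7, 21, 3 and 1 and then baseline. The values of days 4 and 7 overlapped, as did those of days 7 and 21. In raw Ct days 7 and 21 lay apart, with means of 21.40 and 22.77. Days 21 and 3, days 3 and 1, and day 1 and baseline did not overlap, although in raw Ct days 21 and 3 did. The order of days 4 and 7 depended on the scaling, with day 7 above day 4 relative to U6, snoRNA135, snoRNA202 and Y1 and in raw Ct.

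Relative to the median miRNA, miR-188-5p had a peak where miR-501-3p had a plateau. Its Ct values at baseline were 25.24, 25.57, 25.80 and 25.48. On day 1 they were 23.38, 22.58, 22.50 and 22.94, and on day 3 they were 22.56, 21.51, 21.93 and 22.37. Both days lay wholly below baseline and overlapped with each other.

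Day 4 was the highest point of miR-188-5p, with Ct values of 20.67, 20.84, 20.93 and 20.64, all below those of any other group. On day 7 the values were 22.25, 22.74, 22.78 and 21.75. At day 21 they were 25.04, 25.05, 25.16 and 25.07. The day 21 values were all slightly below the baseline values in raw Ct, and the 2 groups overlapped relative to the median miRNA.

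The change of miR-188-5p relative to the median miRNA was 2.29 ± 0.24 on day 1 (4.88-fold), 2.72 on day 3 (6.60-fold) and 3.81 on day 4 (14.0-fold), with the same standard error on each day. It was 1.95 on day 7 (3.86-fold) and 0.29 ± 0.24 on day 21 (1.23-fold). Its day 21 direction depended on the scaling, with -0.84 ± 0.28 relative to snoRNA135 and 1.36 relative to Y1. By level the order was day 4, day 3, day 1, day 7, day 21 and baseline. Days 3 and 1, days 1 and 7, and day 21 and baseline overlapped, while day 4 stood apart from day 3 and day 7 from day 21. Day 4 was highest under every scaling tried except Y1, against which day 1 was, at 5.02. No test is attached to these values either.

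**Figure D2:**
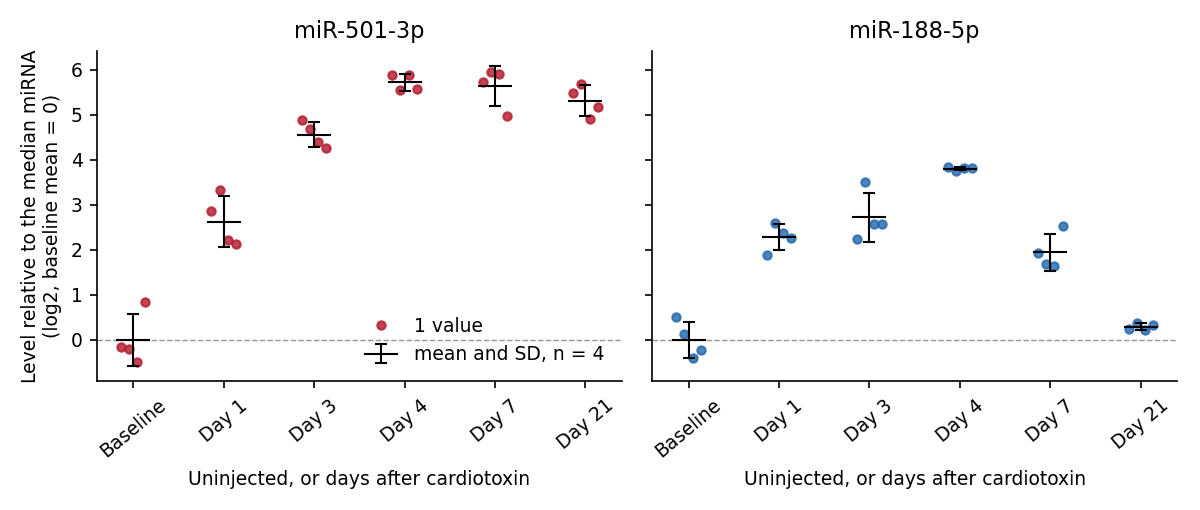
Level of each miRNA relative to the median miRNA (log2, vertical axis, baseline mean at 0) in baseline muscle and on days 1 to 21 after cardiotoxin. Points are the 4 values of a group, the bar its mean and the whiskers 1 SD. miR-501-3p stays near 5.32 at day 21, and miR-188-5p reaches 3.81 on day 4 and 0.29 at day 21.

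The day 1 levels rest on the scaling for both miRNAs. Relative to U6 the day 1 change was 0.72 ± 0.56 for miR-501-3p and 0.38 ± 0.41 for miR-188-5p, each close to its standard error. From day 4 the scaling mattered less for miR-501-3p, with 5.05 on day 4, 5.55 on day 7 and 5.20 on day 21 relative to U6. For miR-188-5p the values relative to U6 were 1.60 on day 3, 3.14 on day 4, 1.86 on day 7 and 0.17 on day 21.

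**Figure D3:**
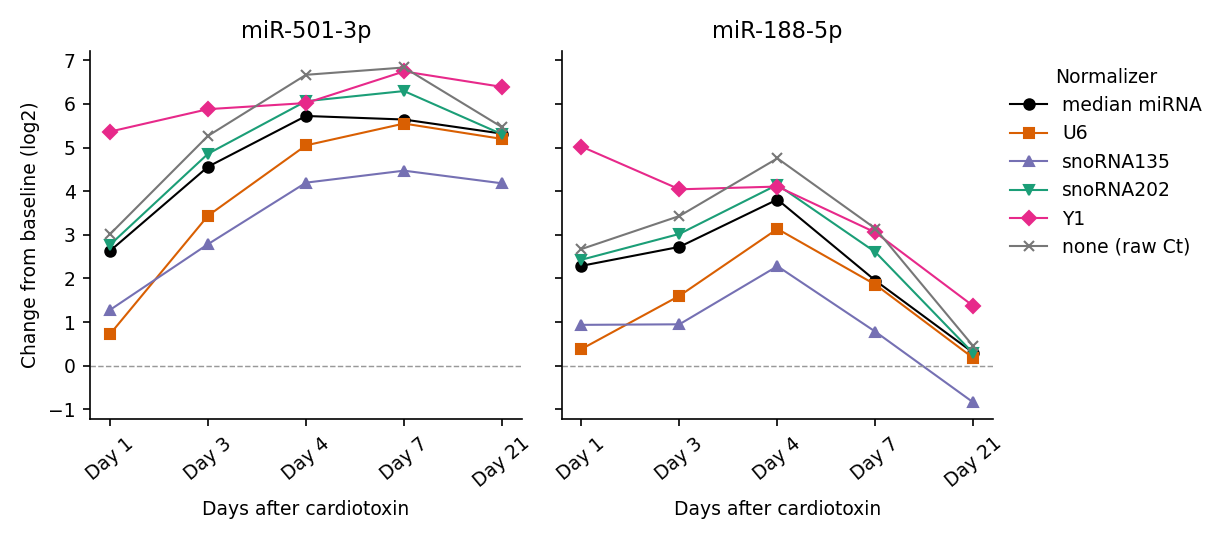
Change from baseline (log2, vertical axis) of each miRNA on each day, with a line for each normalizer. The lines spread by several log2 units on day 1, and miR-188-5p at day 21 lies between -0.84 (snoRNA135) and 1.36 (Y1), while miR-501-3p at day 21 lies between 4.18 and 6.39.

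The mean gap between the 2 miRNAs needs no normalizer, since both were read in the same groups. Its SD takes values in the same position as the same RNA, which the files do not state. The Ct of miR-188-5p minus that of miR-501-3p was -2.71 ± 0.75 (SD, n = 4) at baseline and -2.37 ± 0.58 on day 1. It was -0.87 ± 0.60 on day 3, -0.80 ± 0.17 on day 4, 0.98 ± 0.86 on day 7 and 2.32 ± 0.30 on day 21. The ratio of miR-501-3p to miR-188-5p was thus higher than at baseline by 3.57-fold on day 3, 3.77-fold on day 4, 12.9-fold on day 7 and 32.6-fold on day 21. Days 3 and 4 had nearly the same mean gap, and the wider gap at days 7 and 21 coincided with the lower level of miR-188-5p. The difference between them was part of why they were chosen, so it too is a description.

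The 4 other assays of the gene, miR-362-3p, miR-500, miR-532-3p and miR-532-5p, were not used in that choice and were tested. Their list was still drawn up with earlier results of these data known. They share a host gene, and miR-532-3p and miR-532-5p share a hairpin, so they are not 4 independent results. All 4 were higher than baseline on each of the 5 days relative to the median miRNA, day 21 included. The test was limma's moderated test over all miRNAs detected in both groups, with Benjamini-Hochberg adjustment and an adjusted p under 0.05, two-sided. On day 1, when 41.2% of the 211 tested miRNAs were higher, the median-miRNA scaling called 4 of 4 higher. With U6, 0 were higher and 1, miR-532-3p, was lower, beside 9.00% of all tested miRNAs higher and 65.9% lower (38.9% lower with the median-miRNA scaling).

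On day 3 all 4 were again higher relative to the median miRNA (38.7% of 212 higher, 41.0% lower), and 1, miR-500, relative to U6 (19.3% higher, 52.8% lower). From day 4 on, the 4 were higher under both scalings. The share of all tested miRNAs that were higher was 43.2% of 213 on day 4 (25.4% relative to U6), 40.4% on day 7 (31.5%) and 35.7% on day 21 (22.1%), and the share lower was 41.3% (43.2%), 42.3% (36.2%) and 37.6% (19.2%). The median change of the 4 was 1.04, 2.02, 2.72, 2.33 and 1.75 on days 1, 3, 4, 7 and 21. The medians over all tested miRNAs were -0.04, -0.05, 0.06, 0.065 and -0.0013, which the median-miRNA scaling keeps near no change by construction. Relative to U6 the median of the 4 was -0.87, 0.90, 2.05, 2.24 and 1.63, against -1.95, -1.17, -0.61, -0.03 and -0.12 over all tested miRNAs.

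miR-500 was the highest of the 4 on each day. Its Ct values were 24.25, 24.24, 24.45 and 24.48 at day 21, against 27.60, 27.33, 26.91 and 26.74 at baseline, with no overlap. Its change was 3.44 ± 0.13 on day 4 (10.9-fold, limma adjusted p = 2.01e-15) and 2.64 ± 0.13 on day 21 (6.24-fold, limma adjusted p = 3.13e-13).

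miR-362-3p, whose hairpin lies between those of miR-188 and miR-501, was also higher than baseline at day 21. Its Ct values were 23.35, 23.30, 23.88 and 23.61 at day 21, against 26.29, 25.51, 25.17 and 25.20 at baseline. The change was 2.77 ± 0.23 on day 4 and 1.86 ± 0.23 on day 21 (limma adjusted p = 2.79e-10 and 3.30e-07).

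Both arms of miR-532, the hairpin closest to Mir188, rose relative to the median miRNA. miR-532-3p changed by 2.68 ± 0.13 on day 4 and 1.64 ± 0.13 on day 21 (limma adjusted p = 2.95e-10 at day 21), and miR-532-5p by 2.45 ± 0.21 and 1.54 ± 0.21 (limma adjusted p = 1.47e-06 at day 21). For miR-532-5p at day 21 the Ct values were 18.32, 18.60, 18.90 and 18.98, against 20.66, 20.57, 20.24 and 20.09 at baseline. Relative to snoRNA135 the miR-532-5p change at day 21 was 0.40 and no longer passed.

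Side by side, all 6 assays had their highest level on day 4 relative to the median miRNA. That shared day depended on the scaling. Relative to U6 only miR-188-5p was highest on day 4. The other 5 were highest on day 7, as with miR-500 at 2.77 on day 4 and 3.21 on day 7. Between day 4 and day 21 the level of miR-188-5p relative to the median miRNA dropped by 3.52 on the log2 scale. The other 5 dropped by 0.41 (miR-501-3p) to 1.04 (miR-532-3p) with that scaling. Relative to U6, miR-188-5p had 3.14 on day 4 and 0.17 on day 21. With U6 miR-501-3p did not drop, with 5.05 and 5.20, and miR-532-3p had 2.00 and 1.52. The differences relative to the median miRNA still rest on the baseline values, which entered the scaling of each well. At day 21 miR-188-5p stood nearest to baseline of the 6 and miR-501-3p farthest from it. Days 1 to 4 showed no such contrast: the changes of miR-188-5p, at 2.29, 2.72 and 3.81, lay within the range of the other 5, between miR-532-5p at the low end on days 3 and 4 (miR-532-3p on day 1) and miR-501-3p at the high end.

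**Figure D4:**
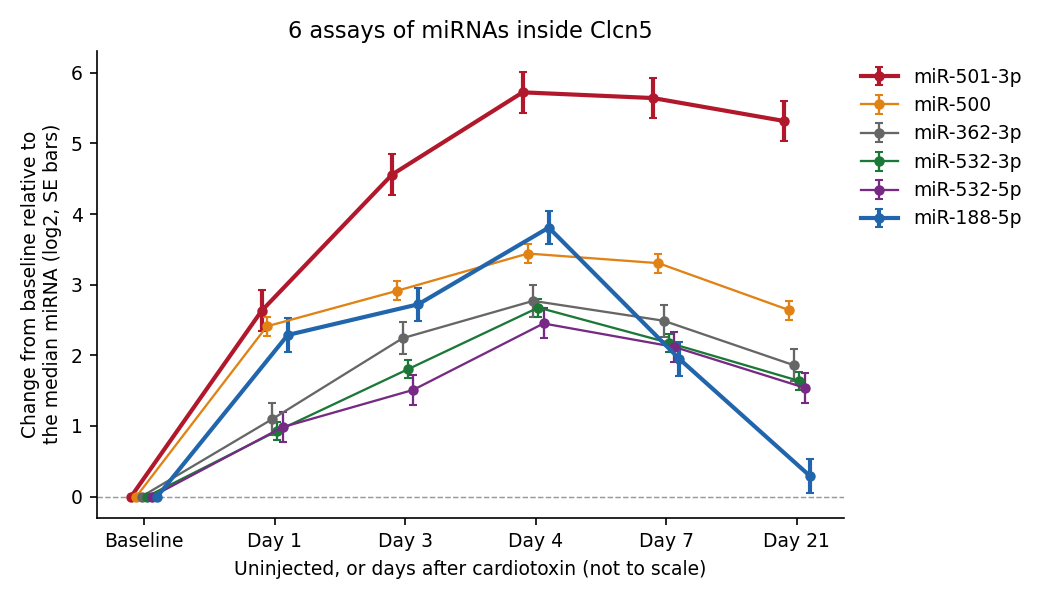
Change from baseline relative to the median miRNA (log2, bars are the SE of the fit) of the 6 assays of Clcn5 miRNAs, at baseline and on days 1, 3, 4, 7 and 21 (spaced evenly). miR-501-3p has the highest line throughout, and miR-188-5p, at 3.81 on day 4, is the lowest of the 6 at day 21.

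Correlations of group means are given as a description, over 6 groups whose values share their wells and the scaling. Pearson's r between miR-501-3p and miR-188-5p was 0.53 (0.19 relative to snoRNA135 and 0.67 in raw Ct). miR-501-3p had r of 0.97 with miR-362-3p, 0.96 with miR-532-5p, 0.96 with miR-532-3p and 0.94 with miR-500 (0.75 to 0.99 over these pairs with other scalings). miR-188-5p had r between 0.70 (miR-532-5p) and 0.72 (miR-500) with those 4 (0.26 to 0.86 with other scalings). Around the group means, over 24 values, r was -0.18 between miR-501-3p and miR-188-5p, 0.64 between miR-501-3p and miR-532-5p, 0.58 between miR-501-3p and miR-362-3p, and 0.59 between miR-188-5p and miR-532-3p. The other pairs with these 2 miRNAs gave 0.45 for miR-501-3p with miR-500, -0.15 for miR-501-3p with miR-532-3p, and -0.44, -0.21 and -0.09 for miR-188-5p with miR-362-3p, miR-500 and miR-532-5p. These values around the means assume that values in the same position came from the same RNA, which the files do not state.

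Among 204 other miRNAs with a Ct under 35 in every well, the 5 whose group means were most like those of miR-501-3p were miR-494, miR-34b-3p, miR-31, miR-34c and miR-362-3p, with r of 0.99, 0.98, 0.98, 0.97 and 0.97. miR-31 restrains translation of Myf5 in quiescent mouse satellite cells, and miR-34b and miR-34c are transcribed together as targets of p53. Like miR-501-3p, they were high at day 21: the level relative to the median miRNA was 6.50 for miR-31, 4.57 for miR-34c, 2.49 for miR-34b-3p and 1.99 for miR-494, each as a log2 difference from baseline. miR-188-5p ranked 52nd in that order. The ranks were taken with the median-miRNA scaling only. With other scalings r was 0.91 to 0.97 for miR-494 and 0.91 to 0.99 for miR-500.

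For miR-188-5p the 5 most alike were miR-18a, miR-503, miR-182, miR-674 and miR-184, with r of 0.93, 0.91, 0.90, 0.89 and 0.89. miR-18a belongs to the miR-17-92 cluster, known for promoting proliferation, and miR-503 slows the cell cycle of mouse myoblasts. All 5 were lower at day 21 than at day 4: miR-18a had 1.30 at day 21, against 4.14 on day 4, and miR-503 had 1.51, against 3.68. miR-182 had 0.81 at day 21, against 3.42 on day 4, and miR-188-5p had 0.29, against 3.81. None of the other Clcn5 assays was among these 5. The nearest, miR-500, ranked 31st, again with the median-miRNA scaling only. With other scalings r was 0.77 to 0.94 for miR-184 and 0.38 to 0.85 for miR-500.

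Set among all tested miRNAs, miR-501-3p had the 24th largest change of 211 on day 1 and the 7th of 212 on day 3. On days 4, 7 and 21 it ranked 6th, 6th and 4th of 213. miR-188-5p ranked 32nd, 29th, 15th, 54th and 85th on days 1, 3, 4, 7 and 21. In the spread of all changes, 95% of tested miRNAs lay below 4.13 on day 4 and 3.19 on day 21. miR-501-3p, at 5.72 and 5.32, was beyond that mark on both days and miR-188-5p was not. Because miR-501-3p was chosen for being high, its ranks and its place beyond the mark are a description and not a test.

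**Figure D5:**
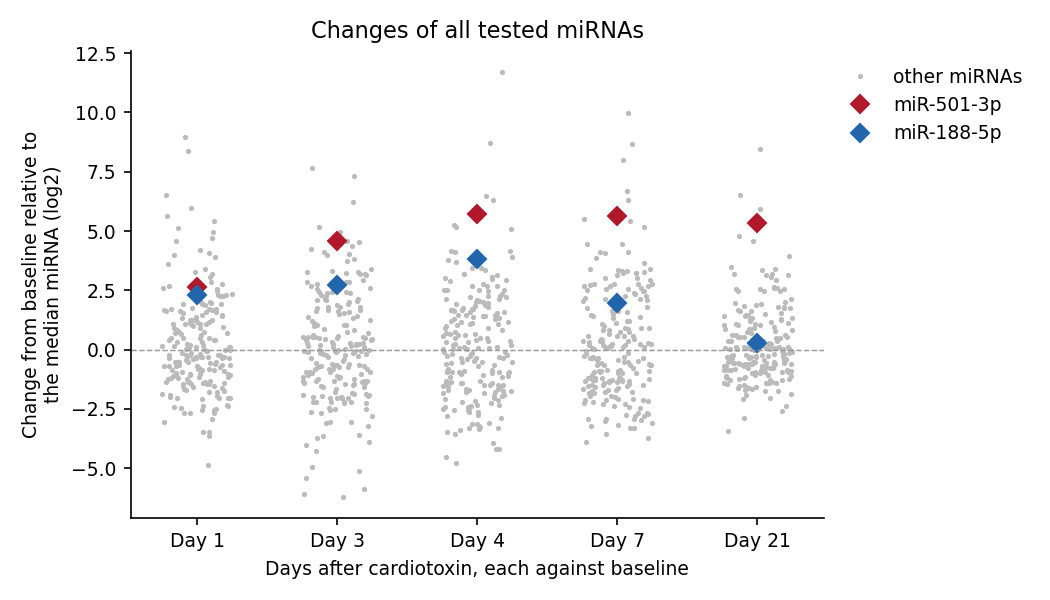
Change from baseline relative to the median miRNA (log2, vertical axis) of every tested miRNA on each day after cardiotoxin, 1 point per miRNA, with sideways scatter for legibility. Diamonds mark miR-501-3p and miR-188-5p, at 5.32 and 0.29 on day 21.

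Markers of the cells in the tissue changed over the same days. For each marker list the counts of members whose mean lay above baseline, the median log2 difference and the summed level are given. The sum adds each assay by its own Ct, so it follows the assays with the lowest Ct and can go against most members, and the count and median do not. Of the muscle fibre miRNAs (5 measured of 7 listed, miR-1, miR-133a, miR-133b, miR-486 and miR-499), 0 of 5 were above baseline on days 1, 3, 4 and 7 and 1 of 5 at day 21. Their median was -6.09 on day 3, -3.95 on day 4 and -1.27 on day 21. The sum was 0.0103 to 0.0521 of the baseline mean on day 3, 0.0327 to 0.0841 on day 4 and 0.350 to 0.463 on day 21, against 0.879 to 1.16 at baseline. All 5 were detected in every group except day 3, with 4.

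Of the blood and myeloid miRNAs (5 of 5 measured, miR-223, miR-142-3p, miR-142-5p, miR-150 and miR-451), 5 were above baseline on day 1, 4 on day 3, 3 on day 4, 3 on day 7 and 2 at day 21. Their median was 4.96, 3.74, 2.15, 0.75 and -0.0013 on these days. The sum was 15.0 to 17.3 times the baseline mean on day 1, 1.23 to 1.31 on day 4, 0.555 to 0.699 on day 7 and 0.603 to 0.765 on day 21, against 0.815 to 1.15 at baseline. On day 7 the sum was thus below baseline while most members and the median were above it.

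Both endothelial miRNAs lay below baseline on days 3, 4, 7 and 21, with a sum of 0.139 to 0.190 on day 4 and 0.600 to 0.705 on day 21, against 0.882 to 1.13 at baseline. Of the 4 smooth muscle and fibroblast miRNAs, 2 were above baseline on each of days 4, 7 and 21, with medians of -1.05, -0.91 and -0.25. Their sum was 0.144 to 0.199 on day 4 and 0.390 to 0.496 on day 21, against 0.945 to 1.04 at baseline. Of the epithelial miRNAs (6 measured of 7, 5 of them detected at baseline), 5 were above baseline on days 1, 3, 4 and 7 and 4 at day 21. The medians were 5.00, 3.93, 2.93, 2.04 and 0.08. These counts and medians include the assay not detected at baseline, which was not detected at day 21 either. The 5 detected in both groups had day 21 changes of 1.12 (miR-200a), 0.14 (miR-203), 0.01 (miR-141), -0.16 (miR-200b) and -1.24 (miR-200c). The epithelial sum ran the other way on day 4, at 0.432 to 0.771. It was 0.830 to 1.31 on day 21, against 0.883 to 1.25 at baseline. The part of any of these cells in the levels of miR-501-3p and miR-188-5p was not tested.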

How the data were processed

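The authors deposited raw Ct values per assay, not normalized, from TaqMan assays run for 40 cycles on total RNA with an integrity number above 9, per the labels' protocols. How the Ct threshold was set is not given in the sources used here. All 5 files repeat the same baseline values, which entered once. Wells at 40 were left out. A miRNA was tested where at least 3 of 4 values lay under Ct 35 in both groups. Minus Ct was centred in each well on the median change of 205 miRNAs, and all 6 groups entered 1 fit with limma 3.58.1 in R 4.3.3, which was tested on simulated data. Alternatives were U6, snoRNA135, snoRNA202, Y1 or no normalizer, Ct limits of 32 and 38, limma-trend, a 2-fold threshold, 2 groups in the fit, and leaving out each value.

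The named miRNAs are both members, the other assays of the Clcn5 list, assays sharing a member's seed, the 5 most alike by Pearson's r, the control RNAs and the marker lists. Members and lists were chosen with earlier results of these data known. Per-well scaling takes values in the same position as the same RNA. The number of values limits the precision, and sequencing depth has no counterpart here. Positions and sequences are those of RefSeq.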

Additional observations from a re-analysis of the deposited data

Results flagged for a closer look

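In 72 checks of 4 values each (6 Clcn5 assays, 6 groups, raw Ct and level relative to the median miRNA), 2 had a single value far from the other 3, and chance flags about 1 such group in 20. For miR-501-3p on day 7 the highest Ct, 22.01, lay apart from the other values, between 21.17 and 21.23. For miR-501-3p at baseline the lowest Ct, 27.12, lay apart from the other values, between 28.59 and 28.61. Relative to the median miRNA neither was set apart by this measure. Over runs that left out 1 value, the change of miR-501-3p lay between 5.47 and 5.91 on day 7 and between 5.17 and 5.63 on day 21.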

How the results depend on the processing

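No paired analysis was possible because the files give no replicate numbers that link mice across days. The changes of miR-501-3p and miR-188-5p moved by more than the spread between values mainly with the normalizer, and the cause was not tested. Relative to U6, miR-501-3p had 0.72, 3.44 and 5.05 on days 1, 3 and 4, and miR-188-5p had 0.38, 1.60 and 3.14. Relative to snoRNA135, on days 1, 3, 4, 7 and 21, miR-501-3p had 1.28, 2.79, 4.20, 4.47 and 4.18, and miR-188-5p had 0.94, 0.95, 2.28, 0.78 and -0.84, a turned sign. Relative to Y1, miR-501-3p had 5.37, 5.88, 6.75 and 6.39 on days 1, 3, 7 and 21, and miR-188-5p had 5.02, 4.04, 4.11, 3.05 and 1.36 on the 5 days. Relative to snoRNA202, miR-501-3p had 6.30 on day 7, and miR-188-5p had 4.15 on day 4 and 2.60 on day 7. In raw Ct, miR-501-3p had 5.27, 6.67 and 6.84 on days 3, 4 and 7, and miR-188-5p had 2.67, 3.43, 4.75 and 3.14 on days 1, 3, 4 and 7.

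Of the 4 other Clcn5 assays, the number higher was 0 on day 1 and 1 on day 3 relative to U6, 1 on day 1, 1 on day 3 and 3 on day 21 relative to snoRNA135, and 2 on day 1 with a 2-fold threshold added. Signs turned relative to U6 on day 1 for miR-362-3p (-0.81), miR-532-3p (-0.98) and miR-532-5p (-0.93), and relative to snoRNA135 on day 1 for the same assays (-0.26, -0.42 and -0.37) and on day 3 for miR-532-5p (-0.27). In the runs that left out 1 value, the 4 assays stayed higher on each day, and the day 21 change lay between 5.17 and 5.63 for miR-501-3p and between 0.17 and 0.46 for miR-188-5p. Ct limits of 32 and 38, limma-trend and fits of 2 groups moved none of these changes beyond the spread between values and changed none of these counts. The alternatives for the correlations and for the gap between miR-501-3p and miR-188-5p were chosen after seeing the data.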
